A study of Rattus norvegicus with 20 samples.

Results

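The Toll-like receptors are a family of innate immune receptors, and their transcripts were followed here in inguinal white adipose tissue (iWAT), a subcutaneous fat depot, of ZSF1 rats. The family was taken as the 10 genes Tlr1, Tlr2, Tlr3, Tlr4, Tlr5, Tlr6, Tlr7, Tlr8, Tlr9 and Tlr13, matched by gene name in a table of 32545 genes. A row of that name was found for 9 of the 10, and all 9 were among the 17653 genes tested. Tlr1 had no row under that name and is not analysed here. The receptors that act at the cell surface were Tlr2, Tlr4, Tlr5 and Tlr6, and those that act in endosomes were Tlr3, Tlr7, Tlr8, Tlr9 and Tlr13.

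RNA was sequenced from 20 male rats, 5 in each of 4 groups. The Lean group held lean littermates, and the other 3 groups held obese rats that carry 2 mutant alleles of Lepr, the leptin receptor gene (ZSF1-Lepr fa Lepr cp/Crl). All groups had been moved to the same carbohydrate-rich chow when they arrived as younger rats, and the study itself began at 21 to 22 weeks of age and lasted 10 weeks. The Obese group ate freely, the Cmpd 1 group received about 50 mg/kg/day of Cmpd 1, an inhibitor of protein kinase C alpha and beta, in its chow, and the Food matched group was given as much plain chow as the Cmpd 1 rats had eaten in the week before. Obese versus Lean addressed the changes that go with the disease, and Cmpd 1 versus Food matched addressed those that go with the compound at a matched food intake. All groups thus share the ZSF1 background and the diet, and the obese groups carry the Lepr mutations in every tissue.

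Toll-like receptors recognise molecules of microbes and of damaged tissue. Those at the cell surface bind lipids, lipoproteins and proteins, whereas those in endosomes bind nucleic acids and need the chaperone Unc93b1 to reach that compartment. Most of them signal through the adaptor Myd88 to NF-kB and to interferon regulatory factors. In adipose tissue they are known from macrophages and other leukocytes as well as from adipocytes and their progenitors, and Tlr4 in particular is known as a receptor linking lipids and lipopolysaccharide to inflammation of fat.

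The libraries held 31716457 to 74784655 counted reads. Levels are given as CPM, counts scaled to library size with edgeR's TMM factors, and as CPM per kb of annotated gene length where genes are set beside each other. A gene was called changed at a fold over 1.5 and an adjusted p under 0.05 by the edgeR quasi-likelihood test, adjusted after Benjamini and Hochberg over all genes tested. Lepr itself lay between 2.95 and 11.99 CPM in Lean and between 1.24 and 2.32 CPM in the other 15 rats, and the adipocyte genes Adipoq and Plin1 were at 2761 and 1335 CPM or more in every library. Lean rats 1 and 2 stood apart by skeletal muscle transcripts, with Acta1 at 721 and 1232 CPM against at most 20.7 CPM in the other 18 libraries. Lean rat 1 was also the lowest of its group for 8 of the 9 receptors, so results against Lean are given without both of these rats as well.

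Tlr7 and Tlr8 lie next to each other on chromosome X (chrX:28486869-28512957 and chrX:28539158-28562803 of rn6, both on the plus strand, 26200 bases apart), and Tlr13 lies farther along the same chromosome (chrX:77212458-77234046, plus strand). Their transcripts behaved differently in the comparisons below, as did that of Tlr5 (chr13:101381510-101385764, plus strand), so the 250 bases before the annotated start of these 4 genes are shown, from RefSeq on the build GRCr8. They lie at chrX:30708476-30708725, chrX:75285582-75285831, chrX:30644176-30644425 and chr13:97182910-97183159, all on the plus strand, written 5′ to 3′. Capitals mark letters of a searched motif.
Tlr8: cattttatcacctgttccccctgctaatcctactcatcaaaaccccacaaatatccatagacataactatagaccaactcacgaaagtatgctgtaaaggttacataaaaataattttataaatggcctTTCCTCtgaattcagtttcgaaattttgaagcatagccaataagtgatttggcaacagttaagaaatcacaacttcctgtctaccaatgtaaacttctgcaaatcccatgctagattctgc
Tlr13: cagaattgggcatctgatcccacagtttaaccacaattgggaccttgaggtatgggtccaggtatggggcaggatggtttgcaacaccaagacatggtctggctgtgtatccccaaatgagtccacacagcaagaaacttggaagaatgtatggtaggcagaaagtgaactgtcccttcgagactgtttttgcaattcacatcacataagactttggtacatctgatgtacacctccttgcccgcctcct
Tlr7: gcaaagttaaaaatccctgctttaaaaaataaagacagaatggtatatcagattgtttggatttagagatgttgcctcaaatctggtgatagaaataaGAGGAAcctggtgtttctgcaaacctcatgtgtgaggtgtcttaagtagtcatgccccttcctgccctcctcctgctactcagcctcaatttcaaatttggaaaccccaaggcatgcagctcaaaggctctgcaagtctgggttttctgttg
Tlr5: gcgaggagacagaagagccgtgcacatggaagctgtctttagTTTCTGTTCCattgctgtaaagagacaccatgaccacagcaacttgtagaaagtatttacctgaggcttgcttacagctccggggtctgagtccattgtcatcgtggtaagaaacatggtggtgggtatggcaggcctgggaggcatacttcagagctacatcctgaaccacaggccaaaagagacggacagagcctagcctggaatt
A set of 5 motifs known from myeloid cells and from Toll-like receptor signalling were searched on both strands of all 33469 promoters of that table. The letters GAGGAA, bound by the myeloid factor PU.1, were found in 23.3% of all promoters and in 6 of the 10 members' promoters, those of Tlr3, Tlr4, Tlr6, Tlr7, Tlr8 and Tlr9. In Tlr8 they lie at positions −121 to −116 from the start, on the minus strand (written TTCCTC above), and in Tlr7 at −152 to −147. The composite of an ETS factor and an interferon regulatory factor, searched as GGAA and GAAA with any 2 bases between them, was in 2.48% of all promoters and only in that of Tlr5 among the 10, at −208 to −199 on the minus strand. The AP-1 letters TGANTCA were in 6.34% of all promoters and in 1 member, Tlr9. The interferon-stimulated response element, searched as GAAA repeated after any 2 bases, and the NF-kB letters GGG and TTTCC around any 2 bases were in 3.41% and 1.3% of all promoters and in 0 of the 10 members. The PU.1 letters, the composite and the response element share bases and can overlap. The capitals in the 4 windows thus mark 1 match each in Tlr8, Tlr7 and Tlr5, and the Tlr13 window has no match to any of these letters.

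Endosomal receptor transcripts made up most of the summed level of the 9 receptors in every rat, and their sum differed more between the groups than the surface sum. Summed over the 5 endosomal receptors, the level was 29.9 ± 4.04 CPM per kb in Lean (SD, n = 5), 84.0 ± 9.36 in Obese, 88.9 ± 9.54 in Food matched and 57.7 ± 7.52 in Cmpd 1. No Lean rat reached the lowest rat of any obese group (24.4 to 34.5 against 73.1 to 94.6, 79.1 to 105 and 46.6 to 64.5), and the Cmpd 1 rats lay below all Obese and Food matched rats. The 4 surface receptors together were at 22.1 ± 1.44 CPM per kb in Lean, 25.2 ± 1.93 in Obese, 25.1 ± 1.13 in Food matched and 21.5 ± 2.04 in Cmpd 1. These surface sums overlapped between Lean and Obese (19.8 to 23.1 and 22.5 to 27.9) and between Food matched and Cmpd 1 (23.6 to 26.7 and 19.3 to 24.0). The endosomal share of the summed level was 57.4 ± 2.13% in Lean, 76.8 ± 1.47% in Obese, 77.9 ± 1.45% in Food matched and 72.8 ± 2.69% in Cmpd 1. The share in Lean rats (55.3 to 59.9%) did not meet that of any other group, whereas Cmpd 1 (69.5 to 77.0%) and Food matched (76.0 to 79.7%) overlapped. Tlr8 and Tlr13 carried most of the endosomal sum in the obese groups, and Tlr9 contributed least. From Lean to Obese rats, mean Tlr8 went from 11.5 to 41.1 and Tlr13 from 6.004 to 25.1 CPM per kb. Tlr3 went from 7.59 to 11.8 and Tlr7 from 4.37 to 4.76 CPM per kb. Within the surface sum, Tlr5 went down from 3.91 to 1.91, while Tlr2 went up from 9.01 to 13.2 and Tlr6 from 1.02 to 1.81 CPM per kb. In these bulk samples, fewer cells of a type and less RNA per cell cannot be told apart.

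**Figure D1:**
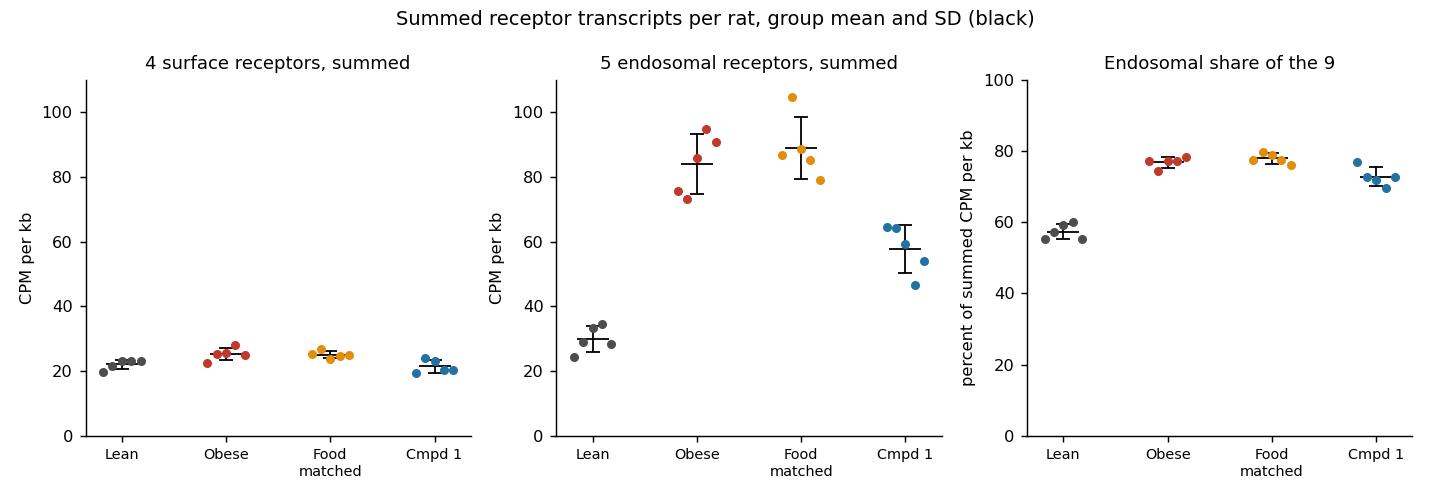
Summed CPM per kb of the 4 surface and the 5 endosomal receptors and the endosomal share of the 9, in percent, for each rat (points) with group mean and SD (black) in 4 groups of 5. The group means of the surface sums lie between 21.5 and 25.2 CPM per kb, while the endosomal sums go from 29.9 in Lean to 84.0 in Obese and 57.7 in Cmpd 1.

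Of the surface receptors, Tlr5 fell and Tlr6 rose in obesity, and Tlr6 was reduced in Cmpd 1 relative to Food matched rats. Values are listed in the order of rats 1 to 5. Tlr5, the receptor for bacterial flagellin, was measured at 13.4, 16.3, 17.2, 17.6 and 18.8 CPM in Lean and 6.68, 8.81, 7.46, 9.17 and 8.52 CPM in Obese rats. All Obese rats lay below all Lean rats, by 2.05-fold, with a log2 fold change of −1.04 (SE 0.17, adjusted p = 2.8e-05). In Food matched rats Tlr5 was at 5.76, 8.16, 8.15, 6.70 and 5.04 CPM and in Cmpd 1 rats at 5.42, 6.70, 10.3, 10.7 and 8.10 CPM. These 2 groups overlapped, with a log2 difference of 0.28 (95% interval −0.071 to 0.63, adjusted p = 0.26), and the Cmpd 1 rats were the more spread.

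Tlr6 (chr14:45033309-45046446 of rn6, plus strand), which pairs with Tlr2 to recognise diacylated lipopeptides, was at 6.22, 7.12, 6.98, 7.99 and 8.03 CPM in Lean and 13.2, 11.7, 12.4, 14.2 and 13.002 CPM in Obese rats. The groups did not overlap, and the log2 fold change was 0.83 (SE 0.09, adjusted p = 1.5e-07). It stood at 14.0, 13.2, 13.4, 13.6 and 13.4 CPM in Food matched rats, a narrow range, and at 8.91, 9.84, 9.66, 6.80 and 8.96 CPM in Cmpd 1 rats. All Cmpd 1 rats lay below all Food matched rats, at a log2 fold change of −0.61 (SE 0.09, adjusted p = 1.4e-04), and 4 of the 5 Cmpd 1 values were above every Lean value. Cmpd 1 rat 4, the shallowest library of the 20, was the lowest of them, and without it the log2 fold change was −0.53, under the fold threshold of 0.58 on the log2 scale. Reads that also match the related Tlr1 or Tlr10 may have been left out or misplaced, so the Tlr6 values are uncertain.

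Tlr2 (chr2:182840727-182846061 of rn6, minus strand), the receptor for bacterial lipoproteins that forms pairs with Tlr1 or Tlr6, was at 22.1, 23.0, 22.6, 25.04 and 24.1 CPM in Lean and 29.5, 34.9, 34.3, 38.3 and 33.5 CPM in Obese rats. No Lean value reached an Obese one, but the fold of 1.46 stayed under 1.5 (log2 fold change 0.54, SE 0.08, adjusted p = 7.8e-06). Without Obese rat 1 the value was 0.59 and Tlr2 was called. In Food matched rats it was 36.3, 32.8, 30.7, 31.7 and 34.5 CPM and in Cmpd 1 rats 26.6, 35.2, 29.5, 25.9 and 27.0 CPM. The second Cmpd 1 rat sat among the Food matched values, the other 4 sat below them, and the log2 difference of −0.20 had an adjusted p of 0.067.

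Tlr4 (chr5:82587420-82601052 of rn6, plus strand), the lipopolysaccharide receptor, had 24.2, 26.3, 31.2, 27.2 and 27.3 CPM in Lean and 25.7, 26.9, 29.4, 30.1 and 27.8 CPM in Obese rats, and the ranges lay over each other. The log2 difference was 0.040 (adjusted p = 0.7), with a 95% interval of −0.12 to 0.20, within a change of 1.5-fold in either direction. In Food matched rats Tlr4 was at 26.9, 34.4, 26.5, 30.1 and 28.8 CPM and in Cmpd 1 rats at 21.8, 25.1, 26.9, 23.3 and 22.5 CPM. The Cmpd 1 values were lower on average, by 1.23-fold, with an adjusted p of 0.0086 and with 2 groups that overlapped.

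Among the endosomal receptors, Tlr8, Tlr13, Tlr9 and Tlr3 were higher in Obese than in Lean rats, and Tlr8 and Tlr13 were lower with Cmpd 1. Tlr13, a rodent receptor for bacterial ribosomal RNA that the table lists as a processed transcript, was at 18.2, 19.7, 30.4, 29.8 and 23.4 CPM in Lean and 100.05, 84.2, 105, 117 and 101 CPM in Obese rats. Every Obese value was above every Lean value, by 4.17-fold on average, with a log2 fold change of 2.06 (SE 0.15, adjusted p = 1.3e-09). Food matched rats had 104, 123, 104, 101 and 94.9 CPM and Cmpd 1 rats 79.3, 73.0, 67.3, 47.1 and 59.3 CPM. All Cmpd 1 rats lay below all Food matched rats, at 1.62-fold and a log2 fold change of −0.69 (SE 0.14, adjusted p = 0.0015), and all remained above the Lean rats.

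Tlr8, known in humans as a sensor of RNA degradation products, was at 29.6, 38.5, 44.3, 47.0 and 35.8 CPM in Lean and 117, 119.9, 142, 159 and 157 CPM in Obese rats. The lowest Obese rat was above the highest Lean rat by more than the whole Lean range, and the log2 fold change was 1.83 (SE 0.13, adjusted p = 1.4e-09). In Food matched rats the values were 143, 177, 150.2, 137 and 131 CPM and in Cmpd 1 rats 101, 101, 90.4, 68.2 and 82.9 CPM. The groups did not overlap, with a log2 fold change of −0.73 (SE 0.13, adjusted p = 4.7e-04), and the Cmpd 1 values sat between the Lean and the Food matched values.

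Tlr9 (chr8:114916122-114920171 of rn6, plus strand), the receptor for unmethylated CpG DNA, was the least abundant member at 0.626, 1.53, 1.51, 1.38 and 1.33 CPM in Lean rats, and it was at 3.73, 3.57, 5.37, 3.39 and 4.77 CPM in Obese rats. It rested on 32 to 360 reads per library, so its values are the least precise. The groups did not overlap, and the log2 fold change was 1.70 (SE 0.20, adjusted p = 5.6e-07). In Food matched rats it was at 4.21, 3.87, 4.13, 4.92 and 3.17 CPM and in Cmpd 1 rats at 3.87, 3.28, 2.71, 2.76 and 2.95 CPM. These ranges overlapped, with a log2 difference of −0.38 and a 95% interval of −0.78 to 0.018 (adjusted p = 0.17).

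Tlr3 (chr16:50016857-50031214 of rn6, plus strand), the receptor for long duplex RNA that signals through the adaptor Ticam1, was at 29.1, 33.9, 35.4, 36.8 and 34.5 CPM in Lean and 49.1, 48.5, 54.4, 54.9 and 55.8 CPM in Obese rats. The groups were apart, and the fold of 1.55 was just over the threshold (log2 fold change 0.63, SE 0.07, adjusted p = 2.3e-07). Without Lean rats 1 and 2 the value was 0.56, and without Lean rat 1 alone it was 0.58, both under the fold threshold. Food matched rats had 47.9, 58.6, 50.8, 55.8 and 48.4 CPM and Cmpd 1 rats 47.7, 48.3, 46.5, 42.5 and 42.3 CPM. The log2 difference of −0.20 between these had an adjusted p of 0.039, which was 0.12 without Food matched rat 2 and 0.089 with library size alone, and 1 of the 5 Cmpd 1 rats lay above the lowest Food matched rat.

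Tlr7, a receptor for single-stranded RNA, did not follow its neighbour Tlr8. It was at 19.2, 19.6, 18.4, 19.4 and 16.9 CPM in Lean and 17.7, 20.9, 17.1, 22.9 and 23.3 CPM in Obese rats. The Obese values spread around the Lean ones, with a log2 difference of 0.12 (95% interval −0.10 to 0.35, adjusted p = 0.37). In Food matched rats it was at 28.6, 32.3, 25.6, 24.2 and 22.5 CPM and in Cmpd 1 rats at 14.1, 18.5, 20.1, 19.1 and 19.4 CPM. The Food matched rats held the 4 highest values of all 20 libraries, all 5 were above every Cmpd 1 rat, and the fold of 1.46 stayed under 1.5 (log2 fold change −0.55, SE 0.11, adjusted p = 0.0012). Without Food matched rat 5 the log2 fold change was −0.60, and without Cmpd 1 rat 3 it was −0.59, both just past the threshold.

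**Figure D2:**
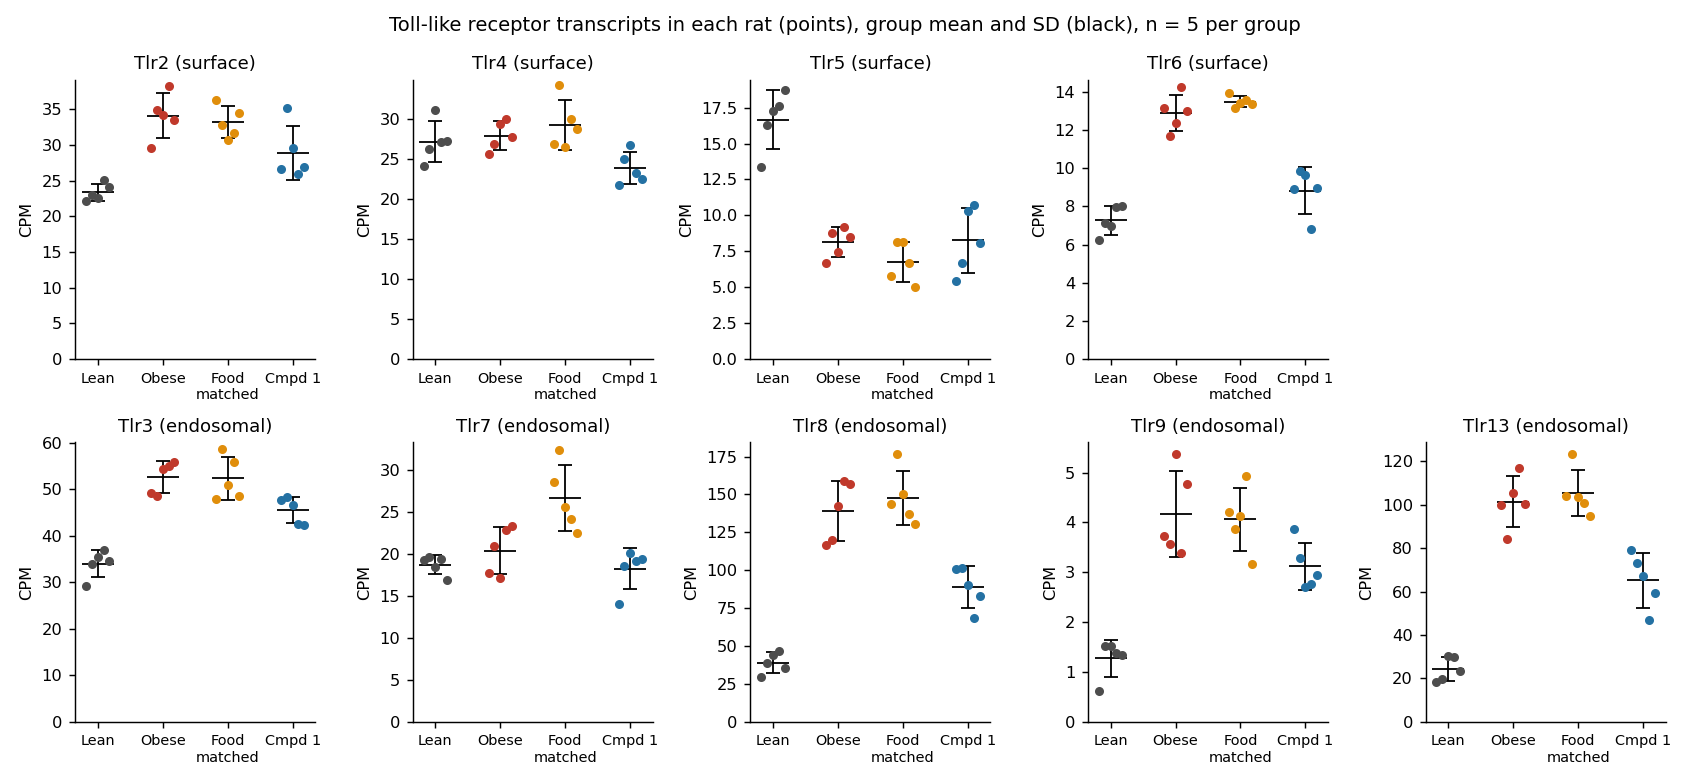
CPM of the 9 receptors in each rat (points, from rat 1 on the left to rat 5) with group mean and SD (black), surface receptors in the upper and endosomal receptors in the lower panels, each axis starting at 0. Lean and Obese rats are apart for Tlr2, Tlr5, Tlr6, Tlr3, Tlr8, Tlr9 and Tlr13 and overlap for Tlr4 and Tlr7.

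In Obese versus Lean rats, 5 of the 9 receptors were higher and 1 was lower. The 5 were Tlr3, Tlr8, Tlr9 and Tlr13 (4 of 5 endosomal receptors) and Tlr6 (1 of 4 surface receptors), and the 1 was Tlr5. Of all genes tested, 11.3% were called higher and 11% lower in this comparison. At an adjusted p under 0.05 with any fold, Tlr2 joined the higher receptors, so that 6 were higher, where 23.7% of all genes were, and 1 was lower, where 24.5% of all genes were. The same 7 receptors had groups that did not overlap, 6 higher and 1 lower, against 17.7% and 15.9% of all genes. The median log2 fold change was 1.70 over the endosomal and 0.29 over the surface receptors, beside −0.014 over all genes tested. These medians hold for the listed receptors only. Tlr10, a surface receptor outside the list, had a log2 fold change of 1.63 (adjusted p = 1.4e-07 by edgeR). Tlr11 and Tlr12, endosomal receptors also outside it, had −0.24 and −0.42 and were not called. The contrast between the class medians thus depends on which receptors are listed, and the medians were not computed with these genes added. Without Lean rats 1 and 2 the log2 fold changes of Tlr13, Tlr8 and Tlr9 were 1.86, 1.71 and 1.57, those of Tlr6 and Tlr5 were 0.75 and −1.14, and 5 receptors were called in place of 6.

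In Cmpd 1 versus Food matched rats, Tlr6, Tlr8 and Tlr13 were lower and 0 receptors were higher. Of all genes tested, 4.65% were called lower and 1.54% higher. With any fold, 6 of the 9 were lower at an adjusted p under 0.05 (Tlr3, Tlr4, Tlr6, Tlr7, Tlr8 and Tlr13), against 11.4% of all genes, and 0 were higher, against 11.4%. By edgeR, 0 receptors were higher at an unadjusted p under 0.05 as well, and limma-voom and DESeq2 also called 3 receptors in all. The groups did not overlap for 4 receptors, all lower (Tlr6, Tlr7, Tlr8 and Tlr13), where 7.86% of all genes were lower and 7.05% higher without overlap. The median log2 fold change was −0.55 over the endosomal and −0.25 over the surface receptors, beside 0.0058 over all genes tested. Library size alone, without TMM factors, gave −0.57 for Tlr6, which left 2 receptors called.

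**Figure D3:**
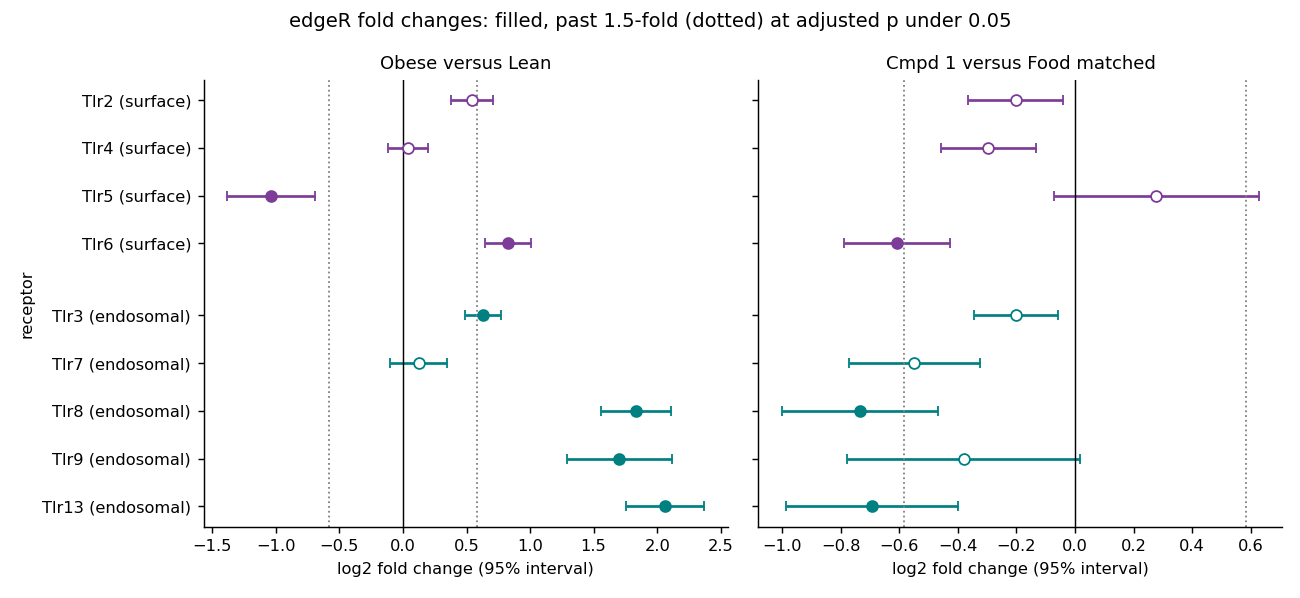
Log2 fold changes of the 9 receptors with 95% intervals from edgeR, for Obese versus Lean (left) and Cmpd 1 versus Food matched (right), filled where the fold passed 1.5 (dotted lines) at an adjusted p under 0.05; the 2 panels have different scales. Tlr8 and Tlr13 are filled on both sides of 0, at 1.83 and 2.06 on the left and −0.73 and −0.69 on the right.

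The 2 comparisons do not share a group, but the 3 others do, with each other and with these, so their values are set side by side only. In Food matched versus Obese rats, 0 receptors were called, as were 0% of all genes higher and 0% lower by edgeR. Tlr7 alone had an unadjusted p under 0.05 (0.0017), at a log2 difference of 0.39 (95% interval 0.16 to 0.61, adjusted p = 0.16), and limma-voom and DESeq2 called 0 receptors. The adjusted p of Tlr7 was 0.043 by DESeq2 and 0.048 by edgeR without Food matched rat 5, at log2 differences of 0.39 and 0.44 that are under the fold threshold. For Tlr8 the 95% interval was −0.18 to 0.35 and for Tlr13 −0.23 to 0.35, both within a change of 1.5-fold. In Cmpd 1 versus Obese rats, Tlr8 and Tlr13 were lower (log2 fold changes −0.65, SE 0.13, adjusted p = 0.0032 and −0.64, SE 0.14, adjusted p = 0.0064) and 0 receptors were higher by edgeR, also at an unadjusted p under 0.05, with 2.8% of all genes lower and 0.731% higher. Neither was called without Cmpd 1 rat 4, at −0.57 and −0.54, and Tlr13 was at −0.58 and not called without Obese rat 4. Tlr6 had a log2 fold change of −0.54 (SE 0.09, adjusted p = 9.3e-04), short of the fold threshold. In Cmpd 1 versus Lean rats, Tlr8, Tlr9 and Tlr13 were higher (1.19, 1.29 and 1.43) and Tlr5 was lower (−1.02), where 7.47% of all genes were higher and 9.11% lower. Tlr7 differed by −0.038 in that comparison, with a 95% interval of −0.26 to 0.19, while Tlr3, Tlr2 and Tlr6 had adjusted p values under 0.05 at log2 fold changes of 0.42, 0.30 and 0.28. For Tlr6 the adjusted p was 0.11 without Lean rats 1 and 2 and 0.079 with only the 2 groups in the fit. Without Lean rats 1 and 2, 4 receptors were called here as well.

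Per kb of gene length, the order of the 9 receptors was not the same in Lean and in obese rats. In Lean rats the range ran from Tlr8 at 11.5 ± 2.05 CPM per kb through Tlr2 at 9.01 ± 0.459, Tlr4 at 8.14 ± 0.761, Tlr3 at 7.59 ± 0.651, Tlr13 at 6.004 ± 1.39, Tlr7 at 4.37 ± 0.254 and Tlr5 at 3.91 ± 0.479 to Tlr6 at 1.02 ± 0.106 and Tlr9 at 0.392 ± 0.115. Each neighbour in that order overlapped the next down to Tlr5, so the first 7 are not told apart step by step. In Obese rats Tlr8 at 41.1 ± 5.89 and Tlr13 at 25.1 ± 2.91 stood clear of the rest, followed by Tlr2 at 13.2 ± 1.21 and Tlr3 at 11.8 ± 0.776, which overlapped, then Tlr4 at 8.37 ± 0.541 and Tlr7 at 4.76 ± 0.666, and last Tlr5, Tlr6 and Tlr9 between 1.28 and 1.91, which overlapped in that order. The Food matched order was like it, save that Tlr6 and Tlr5 traded places within their overlap. In Cmpd 1 rats Tlr8 at 26.2 ± 4.07 was still apart from Tlr13 at 16.1 ± 3.10, but Tlr13 now overlapped Tlr2 at 11.1 ± 1.47. The Tlr6 value depends on an annotated length of 7118 bases, the longest of the 9, against 2593 for Tlr2, the shortest.

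The level of Tlr8 relative to its neighbour Tlr7 was higher in every obese rat than in any Lean rat. Per kb, Tlr8 was 2.64 ± 0.462 times Tlr7 in Lean rats (1.95 to 3.06) and 8.69 ± 1.17 times in Obese rats (7.26 to 10.5). It was 7.05 ± 0.437 times in Food matched and 6.32 ± 1.76 times in Cmpd 1 rats, 2 groups whose ranges overlapped. The ratio of Tlr13 to Tlr8 was 0.518 ± 0.0549 in Lean and 0.614 ± 0.0656, 0.598 ± 0.0166 and 0.611 ± 0.0309 in Obese, Food matched and Cmpd 1 rats. Between the partners Tlr6 and Tlr2, the ratio per kb was 0.113 ± 0.00688 in Lean and 0.112 ± 0.0123 in Cmpd 1 rats, and 0.139 ± 0.0150 and 0.148 ± 0.00861 in Obese and Food matched rats. The Food matched rats (0.140 to 0.159) and the Cmpd 1 rats (0.0957 to 0.122) were apart in this ratio.

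The marker lists of leukocytes did not all move one way. All 3 pan-leukocyte markers, among them Ptprc (CD45), were higher in Obese than in Lean rats and 2 were lower in Cmpd 1 than in Food matched rats, and their summed level was 193 to 251 CPM in Lean, 642 to 869 in Obese, 654 to 960 in Food matched and 439 to 648 in Cmpd 1 rats. Of the 13 macrophage markers 12 were tested, of which 6 rose (Cd68, Mrc1, Lyz2, Itgam, Trem2 and Gpnmb) and 3 fell (Cd163, C1qb and C1qc) in obesity, and the first 6 fell in Cmpd 1 relative to Food matched rats, and Marco was at 0 in every library. The macrophage sum ranged over 2417 to 3178 CPM in Lean, 6299.6 to 8426 in Obese, 6958 to 12099.5 in Food matched and 4369.97 to 6337 in Cmpd 1 rats. B cell and plasma cell markers summed to 6.29 to 12.5 CPM over all rats. The shares over all genes were 11.3% up and 11% down for Obese against Lean, and 1.54% up and 4.65% down for Cmpd 1 against Food matched. In Obese versus Lean, 3 of 9 T and NK cell markers and 2 of 8 dendritic cell markers were higher, 5 of 6 mast cell markers were lower, and of 8 neutrophil markers 1 was higher and 2 were lower, with neutrophil sums of 482 to 572 CPM in Lean against 119 to 155 CPM in Obese rats. Cmpd 1 versus Food matched gave 1 higher and 1 lower for T and NK cells, 1 lower for dendritic cells, 1 higher for mast cells and 1 higher for neutrophils, and 0 for B and plasma cells by edgeR in both comparisons. Lower in Obese than in Lean rats were also 5 of 5 skeletal muscle, 4 of 4 liver and intestine, 3 of 4 lymph node stroma, 2 of 3 gland, 3 of 7 adipocyte, 3 of 6 fibroblast and 1 of 4 endothelial markers, with 1 gland, 1 adipocyte and 1 fibroblast marker higher. Of these, 1 liver and intestine marker was called in Cmpd 1 versus Food matched rats, where it was higher. The skeletal muscle sums overlapped, at 8.36 to 4221 CPM in Lean and 1.09 to 8.57 CPM in Obese rats, and Lean rats 1 and 2 stood apart by Acta1. The marker calls are not given without these 2 rats. The part of cell composition in the receptor results was not tested.

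Set against Ptprc in the same rat, the receptors fell into different patterns. Tlr8 was at 0.591 (0.568 to 0.624) CPM per CPM of Ptprc in Lean (mean and range of 5 rats), 0.647 (0.599 to 0.678) in Obese, 0.663 (0.599 to 0.700) in Food matched and 0.605 (0.568 to 0.639) in Cmpd 1 rats, and Tlr9 was at 0.0192 (0.0120 to 0.0248), 0.0195 (0.0145 to 0.0239), 0.0183 (0.0144 to 0.0215) and 0.0214 (0.0178 to 0.0240). Both thus had overlapping ranges in all 4 groups on this scale. Per 100 CPM of the macrophage sum, however, Tlr8 was at 1.16 to 1.56 CPM in Lean and 1.78 to 2.01 CPM in Obese rats, which do not overlap. Per Ptprc again, Tlr13 was at 0.366 (0.320 to 0.396) in Lean rats, below its 0.474 (0.432 to 0.513) in Obese rats. Tlr4, whose CPM overlapped between these groups, was at 0.418 (0.357 to 0.464) per Ptprc in Lean and 0.131 (0.119 to 0.146) in Obese rats, and Tlr7 at 0.290 (0.240 to 0.370) and 0.0957 (0.0763 to 0.114). Tlr2, Tlr3 and Tlr6 were likewise below every Lean rat per Ptprc in all Obese rats, whereas none of the 3 was lower in CPM. Tlr5 had the widest distance, 0.255 (0.225 to 0.298) in Lean against 0.0382 (0.0332 to 0.0480) in Obese rats. Between Food matched and Cmpd 1 rats, Tlr3 was apart, at 0.236 (0.218 to 0.253) and 0.314 (0.295 to 0.354), whereas Tlr6 overlapped, at 0.0613 (0.0490 to 0.0698) and 0.0605 (0.0551 to 0.0649). Tlr13 also overlapped between these groups, at 0.474 (0.442 to 0.507) and 0.443 (0.392 to 0.490). Ptprc itself was higher in Obese than in Lean rats, so any gene that rose less came out lower in Obese rats on this scale. The share of all genes that did so was not computed. These ratios are a description with no test.

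**Figure D4:**
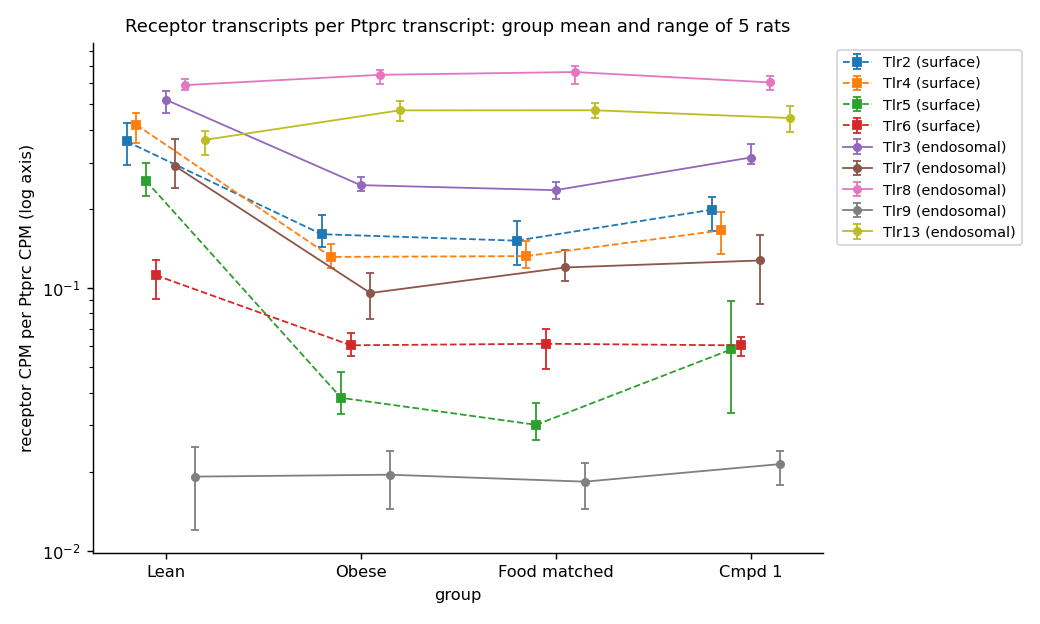
Receptor CPM per Ptprc CPM on a log axis, as the group mean (markers) and range (bars) of 5 rats, with solid lines for endosomal and dashed lines for surface receptors. Tlr8 and Tlr9 overlap between all groups, with means of 0.591 and 0.0192 in Lean and 0.647 and 0.0195 in Obese, while Tlr5 goes from 0.255 to 0.0382.

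The rats of one group also differed from each other, and genes that varied like each receptor were listed by Pearson's r over the 20 libraries after the mean of each group was taken out. The libraries share depth and composition, so the values are a description. Tlr8 varied most like Cd83 (0.96), Ptprc (0.95) and Mrgprx2 (0.94), Tlr13 like Lipa, Slamf9 and Mrgprx2 (0.93 each), and Tlr3 like Atm (0.93) and Ptprc (0.92). Ptprc is thus in the list of 2 endosomal receptors. Among the members themselves, Tlr8 and Tlr13 were closest (0.88), followed by Tlr3 and Tlr8 (0.85) and Tlr3 and Tlr13 (0.75), while the neighbours Tlr7 and Tlr8 had 0.21. Tlr7 varied like Tagap, Wwp1 and Lyve1, a marker of resident macrophages and lymphatic vessels (0.82 each). Of the surface receptors, Tlr4 varied like Hgf (0.86), Elavl1 (0.83) and Usp54 (0.81), Tlr5 like Gda (0.84), Mtmr10 (0.83) and Epb41l2 (0.83), Tlr6 like March1 (0.79), March8 (0.78) and Capza1 (0.77), and Tlr2 like Gid8 (0.73), Snx5 (0.71) and Med11 (0.68). For Tlr9 the nearest were Fat3 (0.85), R3hdm1 (0.84) and Syn1 (0.83), but without Lean rats 1 and 2 they ranked 66th, 39th and 60th at 0.67 to 0.69. Without these 2 rats the r of the other genes named here lay between 0.70 and 0.97, and their ranks moved to between the 1st and the 29th. Atm and Ptprc kept the 1st and 2nd place for Tlr3, whereas Usp54 was 29th for Tlr4, Mrgprx2 23rd for Tlr13 and Capza1 16th for Tlr6.

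The genes around the receptors were read from 8 further lists by role, to be read against the shares over all genes of 11.3% higher and 11% lower in Obese versus Lean and 1.54% higher and 4.65% lower in Cmpd 1 versus Food matched. Of 7 co-receptors and ligand carriers tested, 2 rose and 1 fell in obesity, and 2 fell in Cmpd 1 relative to Food matched rats. The same pair, Cd180 and Ly86, is called in both. Cd180, a surface receptor related to the family, averaged 7.48 ± 1.91 CPM in Lean against 32.3 ± 3.65 CPM in Obese (log2 fold change 2.11, SE 0.16, adjusted p = 3.3e-09) and 32.5 ± 3.76 CPM in Food matched against 19.8 ± 4.90 CPM in Cmpd 1 rats (log2 fold change −0.71, SE 0.16, adjusted p = 0.0028). Ly86, which binds Cd180, had log2 fold changes of 1.66 (SE 0.13, adjusted p = 3.1e-09) and −0.66 (SE 0.12, adjusted p = 9.1e-04), the latter −0.56 and not called without Cmpd 1 rat 4. Lbp, the lipopolysaccharide binding protein, was lower in Obese rats at a log2 fold change of −1.11 (adjusted p = 0.014), but the value was −0.59 without Lean rat 2 and −0.36 without Lean rats 1 and 2, and then not called. Cd14, the co-receptor of Tlr4, had log2 fold changes of −0.43 and −0.40, both under the fold threshold.

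Of 15 genes for folding, transport and endosomal processing, 4 were higher in Obese rats (all genes 11.3%) and 3 lower with Cmpd 1 (all genes 4.65%). Unc93b1, the chaperone of the endosomal receptors, averaged 56.0 ± 5.07 CPM in Lean against 152 ± 22.9 CPM in Obese rats (log2 fold change 1.44, SE 0.11, adjusted p = 2.5e-09), and 174 ± 17.1 CPM in Food matched against 121 ± 18.6 CPM in Cmpd 1 rats, short of the fold threshold (log2 fold change −0.52, SE 0.11, adjusted p = 0.0017). Pld3, a lysosomal exonuclease of nucleic acids, had log2 fold changes of 1.53 in Obese versus Lean and −0.70 with Cmpd 1 (adjusted p = 6.3e-09 and 5.7e-04). Slc15a3, a lysosomal transporter, had a log2 fold change of 1.32 in Obese versus Lean (adjusted p = 2.6e-08). Lgmn, a protease that cleaves endosomal receptors, had log2 fold changes of 1.02 (SE 0.10, adjusted p = 8.5e-08) and −0.63 (SE 0.10, adjusted p = 3.0e-04), and the protease Ctsk fell with Cmpd 1 (log2 fold change −0.62, SE 0.11, adjusted p = 4.1e-04). The Cmpd 1 calls were lost without Food matched rat 1 or 2 for Lgmn (−0.58 and −0.57) and without Food matched rat 2 or Cmpd 1 rat 5 for Ctsk (−0.55 and −0.58). Hsp90b1 and Cnpy3, which fold surface as well as endosomal receptors, had log2 fold changes of 0.12 and 0.34 in Obese versus Lean.

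Adaptors and kinases were called about as often as all genes. Of 20 adaptors and proximal kinases, 2 were higher in Obese rats (all genes 11.3%) and 1 lower with Cmpd 1 (all genes 4.65%). They were Pik3ap1, an adaptor to phosphoinositide 3-kinase (log2 fold change 1.51, SE 0.10, adjusted p = 8.5e-10 in Obese versus Lean), and Btk, a kinase of myeloid and B cells (log2 fold change 1.29, SE 0.13, adjusted p = 5.2e-08, and −0.60, SE 0.12, adjusted p = 0.0017 with Cmpd 1). The Cmpd 1 call of Btk was lost without Food matched rat 1 or 2 or Cmpd 1 rat 4 or 5, at −0.50 to −0.58. It was also lost by limma-voom (−0.58) and with library size alone (−0.57). Myd88 was at 47.8 ± 1.08 CPM in Lean and 51.3 ± 3.69 in Obese rats, a log2 difference of 0.10 (adjusted p = 0.076), and Irak4 and Traf6 had log2 differences of 0.21 and 0.086. Of 11 transcription factors 2 were higher in Obese rats, Irf8 (log2 fold change 0.83, SE 0.08, adjusted p = 8.0e-08) and Rel (log2 fold change 0.64, SE 0.10, adjusted p = 2.7e-05), and 1 was lower with Cmpd 1. Rel was not called without Lean rats 1 and 2, at 0.53. That 1 was Fos (log2 fold change −0.64, SE 0.17, adjusted p = 0.011), which was not called without Food matched rat 3 or Cmpd 1 rat 1 or 3 (−0.52 to −0.57).

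Of 13 inhibitors of the pathway, 4 were higher in Obese rats and 2 lower with Cmpd 1, beside 11.3% and 4.65% of all genes. Tnfaip3, a deubiquitinase induced by NF-kB, had a log2 fold change in Obese versus Lean of 0.59 (SE 0.07, adjusted p = 5.4e-07), only just past the threshold, and was not called by limma-voom or DESeq2, nor without Lean rat 1 or 4 or Obese rat 3, 4 or 5 (0.55 to 0.58). Nfkbie, an inhibitor of NF-kB, had a log2 fold change of 0.61 (SE 0.07, adjusted p = 4.1e-07), and at 0.58 without Obese rat 3 or 4, when it was not called. Usp18, which restrains interferon signalling, had a log2 fold change of 0.76 (SE 0.15, adjusted p = 2.2e-04). Il1rl1 encodes the receptor of interleukin-33 as well as a decoy form, and its log2 fold changes were 1.20 (SE 0.35, adjusted p = 0.0078) and −1.61 (SE 0.36, adjusted p = 0.0028), with Food matched rats spread at 69.0 ± 42.8 CPM. Without Lean rats 1 and 2 its Obese versus Lean value of 0.95 was not called. Lgals3bp, a secreted binding protein of galectins, was lower with Cmpd 1 (log2 fold change −0.69, SE 0.07, adjusted p = 2.2e-05). In Obese versus Lean it was called only without Lean rats 1 and 2 (0.63), Lean rat 1 (0.60) or Obese rat 5 (0.59), not with all rats.

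Of 16 induced cytokines and enzymes tested, 4 were higher and 1 was lower in Obese rats (all genes 11.3% and 11%), and 2 were lower with Cmpd 1 (all genes 4.65%). Il6 averaged 0.263 ± 0.133 CPM in Lean and 1.40 ± 0.825 CPM in Obese rats (log2 fold change 2.398, SE 0.47, adjusted p = 2.7e-04), and the chemokines Ccl3 and Ccl4 had log2 fold changes of 2.09 (SE 0.20, adjusted p = 5.0e-08) and 1.95 (SE 0.17, adjusted p = 1.2e-08). Il10, an anti-inflammatory cytokine, fell (log2 fold change −1.49, SE 0.48, adjusted p = 0.014) at levels of 0.619 ± 0.335 CPM in Lean and 0.220 ± 0.0883 CPM in Obese rats, and was not called without Lean rat 3 (−1.15). With Cmpd 1, Ccl4 and Ccl2 were lower (log2 fold change −0.69, SE 0.16, adjusted p = 0.004 and −0.66, SE 0.23, adjusted p = 0.041). Ccl2 lost its call without Food matched rat 1 or 3 or any Cmpd 1 rat but rat 3, at −0.43 to −0.67, and Ccl3 was at −0.50 and gained one without Food matched rat 3 or 5 or Cmpd 1 rat 1 (−0.59 to −0.62). Ccl2 was also not called by limma-voom (−0.61, adjusted p = 0.083) or by edgeR with library size alone (−0.62, adjusted p = 0.051). Il6 was not called with Cmpd 1 in the main fit. It was called lower by DESeq2 (−1.09, adjusted p = 0.049) and by edgeR with only the 2 groups compared (−1.08, adjusted p = 0.026). Tnf and Ifnb1, with at most 0.0903 CPM in any rat, were not tested.

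Of 9 genes for ligands made by the tissue itself, 4 were higher in Obese rats (Bgn, Tnc, Fn1 and Vcan), and with Cmpd 1 these were lower and 1 other was higher, where 11.3%, 4.65% and 1.54% of all genes were. Bgn (biglycan, a matrix proteoglycan known as a ligand of Tlr2 and Tlr4) averaged 311 ± 36.3 CPM in Lean against 813 ± 107 CPM in Obese rats and 820.2 ± 74.7 CPM in Food matched against 547 ± 38.9 CPM in Cmpd 1 rats (log2 fold change 1.39, SE 0.09, adjusted p = 7.2e-10 and −0.59, SE 0.09, adjusted p = 2.1e-04). The second value is at the threshold and was not called without Food matched rat 2 or 4 or Cmpd 1 rat 1, 3 or 4 (−0.53 to −0.58). Nor was it called by limma-voom (−0.58), with library size alone (−0.55), with a replicate block (−0.58) or with only the 2 groups compared (−0.58). Tnc (tenascin-C, a Tlr4 ligand) had log2 fold changes of 2.07 (SE 0.24, adjusted p = 4.0e-07) and −1.95 (SE 0.23, adjusted p = 3.5e-05), and Fn1 (fibronectin) had log2 fold changes of 1.34 (SE 0.16, adjusted p = 5.8e-07) and −0.63 (SE 0.15, adjusted p = 0.006), the latter −0.51 and not called without Food matched rat 2. Vcan (versican) had log2 fold changes of 0.91 and −0.72. The 1 gene higher with Cmpd 1 was S100a8, a subunit of calprotectin that is also among the neutrophil markers, averaging 0.457 ± 0.187 CPM in Food matched against 1.10 ± 0.527 CPM in Cmpd 1 rats (log2 fold change 1.27, SE 0.35, adjusted p = 0.012).

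Of 12 other sensors of RNA, DNA and cell wall, 7 were higher in Obese rats and 4 of these were lower with Cmpd 1, against 11.3% and 4.65% of all genes. Clec7a (dectin-1, a receptor for fungal glucans) averaged 7.55 ± 2.56 CPM in Lean against 60.9 ± 11.6 CPM in Obese rats (log2 fold change 3.01, SE 0.23, adjusted p = 2.4e-09) and 81.0 ± 15.6 CPM in Food matched against 35.2 ± 9.84 CPM in Cmpd 1 rats (log2 fold change −1.20, SE 0.21, adjusted p = 5.2e-04). Nod2, a sensor of peptidoglycan fragments, had log2 fold changes of 2.01 (SE 0.17, adjusted p = 9.6e-09) and −0.77 (SE 0.16, adjusted p = 0.0022). The DNA sensors Aim2 and Mb21d1 (cGAS) had log2 fold changes of 2.24 and 0.84 in Obese versus Lean (adjusted p = 1.7e-08 and 6.7e-04) and −0.61 and −0.62 with Cmpd 1 (adjusted p = 0.024 and 0.017). Both lost the Cmpd 1 call without Food matched rat 2 or Cmpd 1 rat 4 or 5, at −0.50 to −0.58, and Mb21d1 also without Food matched rat 1 (−0.55). Aim2 was also not called with library size alone (−0.58). Nlrp3, Naip6 and Tmem173 (STING) made up the 7. The RNA helicase sensors Ifih1 and Ddx58 had log2 differences of 0.029 and −0.20, under the fold threshold. The median log2 fold change over these 12 genes was 0.81 in Obese versus Lean and −0.40 in Cmpd 1 versus Food matched.

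**Figure D5:**
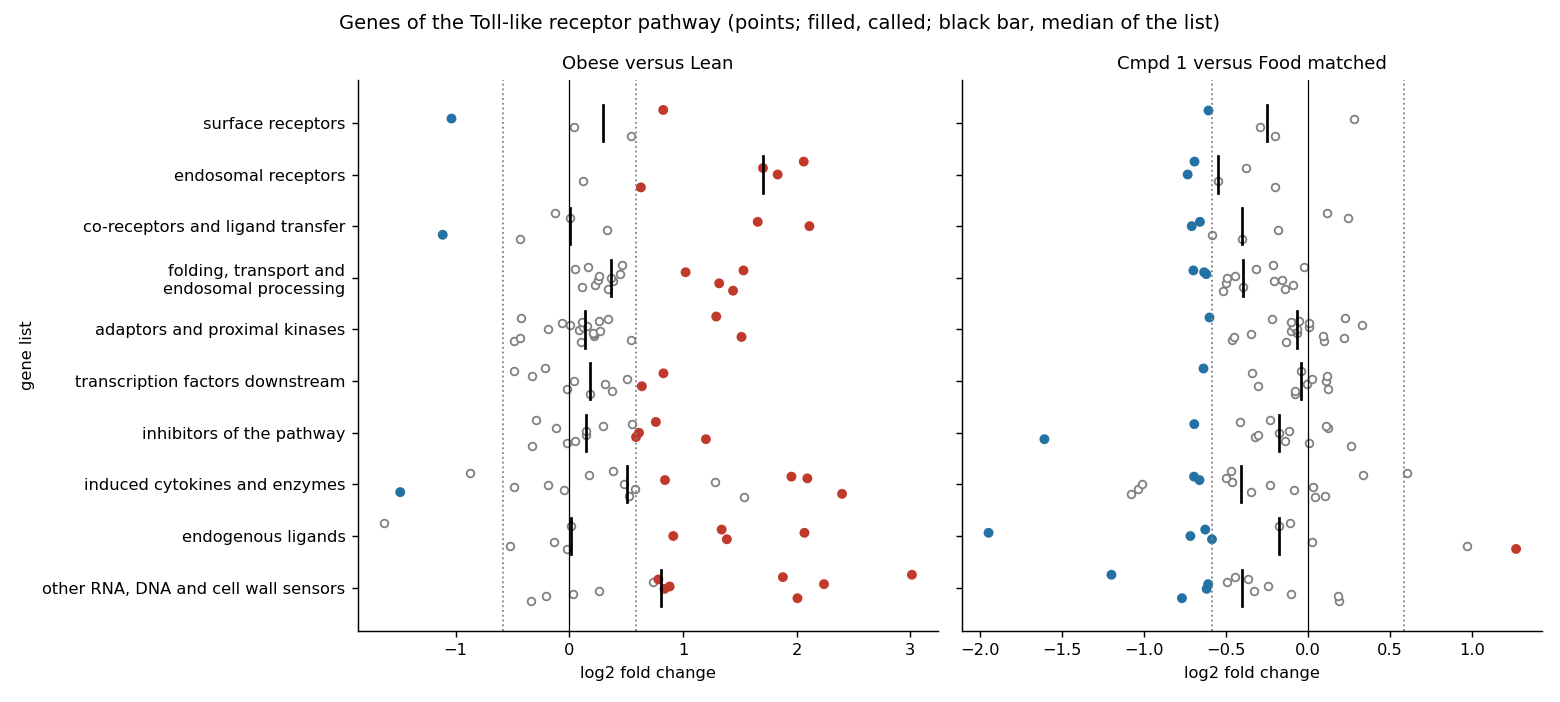
Log2 fold change of every tested gene of 10 lists of the pathway (points) for Obese versus Lean (left) and Cmpd 1 versus Food matched (right), with called genes filled red (higher) or blue (lower), the median of each list as a black bar and the fold threshold dotted. The median of the endosomal receptors is 1.70 on the left and −0.55 on the right, and that of the adaptors and kinases 0.14 and −0.068.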

How the data were processed

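The authors isolated iWAT RNA, mapped the reads with STAR to the rat genome (rn6) and counted uniquely mapped reads per Ensembl gene with featureCounts, and they deposited raw counts with gene positions and lengths for 20 libraries. The submitters' processing notes name STAR 2.5.2, Subread 1.5.1 and GRCh38, a human build, for this table of rat genes. Whether counting used strand is not given in the sources used here. For the 5 Food matched rats the titles and the phenotype field differ (the field says lean), and the titles were followed.

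From the deposited counts, a gene was dropped where 10 or more libraries had no read of it. edgeR 4.0.16 (R 4.3.3) fitted 1 quasi-likelihood model of the 4 groups with TMM factors, tested on simulated data first. A fold over 1.5 with an adjusted p under 0.05 was called, after the study's methods. CPM per kb used the deposited lengths. Alternatives were limma 3.58.1 (voom), DESeq2 1.42.0, other filters, library size alone, only the 2 groups compared, a replicate block, and leaving out each rat or Lean rats 1 and 2. Rats are the replicates, and no 2 libraries of a group agreed within sampling noise. Promoters came from RefSeq on GRCr8, and no coordinates were moved between builds.

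The members and gene lists were chosen with earlier results of these data known. From each list, up to 3 called genes with the smallest adjusted p in either main comparison were named, and any called against the direction of its list, and for each receptor the 3 genes with the highest Pearson r, of which 1 is not reported here. Cd14, Hsp90b1, Cnpy3, Myd88, Irak4, Traf6, Vcan, Nlrp3, Naip6, Tmem173, Ifih1 and Ddx58 were named for their roles, and the called macrophage markers, after their values were seen. Of 121 listed pathway genes 114 were found.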

Additional observations from a re-analysis of the deposited data

Results flagged for a closer look

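In groups of 5 rats, 48 sets of values (9 receptors and 3 class measures in 4 groups) were searched for a rat whose gap to its nearest neighbour exceeded 0.71 of the whole range of the group, and 2 were found. Chance finds about 1 in 20 such sets. Tlr9 in Lean rat 1 was at 0.626 CPM, while the other Lean rats lay between 1.33 and 1.53 CPM. Tlr7 in Cmpd 1 rat 1 was at 14.1 CPM, while the other Cmpd 1 rats lay between 18.5 and 20.1 CPM. Without Lean rat 1 the log2 fold change of Tlr9 in Obese versus Lean was 1.54, and without Cmpd 1 rat 1 that of Tlr7 in Cmpd 1 versus Food matched was −0.47.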

How the results depend on the processing

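Of all genes tested, 3929 were called in Obese versus Lean, 1092 in Cmpd 1 versus Food matched, 0 in Food matched versus Obese, 623 in Cmpd 1 versus Obese and 2926 in Cmpd 1 versus Lean, and of the receptors 6, 3, 0, 2 and 4. With no fold threshold, the calls were 8500, 4031, 0, 2475 and 6880 genes and 7, 6, 0, 5 and 7 receptors. Of the 5 in Cmpd 1 versus Obese, Tlr2 and Tlr3 had adjusted p values of 0.136 and 0.116 without Obese rat 4 and of 0.116 and 0.147 with library size alone, and 3 receptors were then left. In Food matched versus Obese, limma-voom called 10 genes and DESeq2 69. In Cmpd 1 versus Obese, library size alone left 1 receptor called, Tlr8. Leaving out 1 rat at a time gave 5 to 7, 2 to 4, 0 to 0, 0 to 2 and 4 to 4 receptors in the same order, and 3670 to 4035, 803 to 1289, 0 to 93, 365 to 751 and 2586 to 3000 genes. Without Cmpd 1 rat 4, 365 genes and 0 receptors were called in Cmpd 1 versus Obese, and without Food matched rat 5, 93 genes were called in Food matched versus Obese. The endosomal share by CPM without division by length was 61.0% in Lean, 79.2% in Obese, 80.1% in Food matched and 75.8% in Cmpd 1 rats. The cause of these shifts was not tested.

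A fit with the replicate number as a replicate block called 3784, 1051, 2, 582 and 2785 genes and 6, 3, 0, 2 and 4 receptors. Rats with the same number did not vary together (r between −0.10 and 0.15 over 30 pairs, 1 over 0.1), so the numbers were not taken as pairs.

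All values that changed sign were near 0 and called under no alternative. Tlr4 in Obese versus Lean was at −0.029 without Lean rats 1 and 2 and between −8.5e-05 and 0.0996 with 1 rat left out. Tlr5 in Cmpd 1 versus Obese was at −0.070 by limma-voom, −0.0089 with no filter, −0.0069 with the replicate block and between −0.093 and 0.14 with 1 rat left out. With library size alone, Tlr3 in Food matched versus Obese was at 0.016 and Tlr7 in Cmpd 1 versus Lean at 0.0031. With 1 rat left out, Food matched versus Obese ranged over −0.085 to 0.0075 for Tlr2, −0.0498 to 0.024 for Tlr3, −0.12 to 0.0704 for Tlr9 and −0.0072 to 0.11 for Tlr13, and Cmpd 1 versus Lean over −0.076 to 0.044 for Tlr7. S100a8 in Obese versus Lean was at 0.021 by limma-voom, 0.17 without Lean rats 1 and 2 and −0.13 to 0.21 with 1 rat left out. Depth limited Tlr9 most, at 32 to 360 reads per library.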

Other observations

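The table also held rows named Tlr10, Tlr11 and Tlr12, which are outside the 10 genes above. Tlr10, a surface receptor related in sequence to Tlr1 and Tlr6, was at 1.43 ± 0.263 CPM in Lean (SD, n = 5) and 4.45 ± 0.386 CPM in Obese rats, with a log2 fold change of 1.63 (SE 0.17, adjusted p = 1.4e-07 by edgeR). Food matched rats had 3.30 ± 0.506 CPM and Cmpd 1 rats 2.88 ± 0.750 CPM, a log2 difference of −0.19 (adjusted p = 0.48). In Cmpd 1 rats it was called lower than in Obese rats, at −0.62 (adjusted p = 0.018), and higher than in Lean rats, at 1.014 (adjusted p = 9.0e-05). Tlr10, Tlr6 and Tlr1 are related genes, and reads that match more than 1 of them may have been left out or misplaced. The values of Tlr10 and Tlr6 are therefore uncertain. Tlr11 and Tlr12, endosomal receptors for the protozoan protein profilin, averaged 2.61 and 1.63 CPM in Lean and 1.36 and 0.827 CPM in Cmpd 1 rats. They were lower in Cmpd 1 than in Lean rats, at −0.95 and −0.98 (adjusted p = 0.0045 and 0.0017), and did not pass the threshold in Obese versus Lean (adjusted p = 0.44 and 0.12) or in Cmpd 1 versus Food matched rats (adjusted p = 0.22 and 0.41).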
